A study of Mesocentrotus franciscanus with 18 samples.

Results

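The groupings described here are 100 of the 127,198 Trinity gene groupings counted in the red sea urchin, *Mesocentrotus franciscanus*, whose reads were higher in Large than in Small animals in the radial nerve cord (RN) and, on the mean over years, about level between sizes in 2 other tissues. They were selected on measured values. For each tissue and year, d is the difference between the Large and the Small library in log2(CPM+1), where CPM is the count divided by the library's total count and multiplied by 1000000. The score of a grouping is the smallest of its 3 yearly d values in RN minus the larger of the absolute mean d in Aristotle's lantern muscle (ALM) and in the esophagus (ES), and the 100 groupings with the highest score were taken. The size difference in RN and its near absence on the mean in ALM and ES are therefore what chose them, and values of these contrasts are given as a description with no test.

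RNA-Seq was made on RN, ALM and ES of wild animals taken at one site in 3 summers (2010, 2011 and 2013). The Large animals are taken as old and the Small animals as young from the size of the test (the shell), since age was estimated from size and not observed. There are 6 groups of 3 libraries, RN-L, RN-S, ALM-L, ALM-S, ES-L and ES-S, with 1 library per year. For a library, equal amounts of RNA of several untreated animals of one size and year were combined. The spread within a group is thus a spread between pools and years and not between animals, and the animals' sex and genotype are not given in the sources used here. In these bulk samples fewer cells of a type and less RNA per cell cannot be told apart.

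The radial nerve cords of a sea urchin run along the inner side of the test and join a nerve ring around the mouth, and they coordinate tube feet and spines. Their neurons signal at chemical synapses, where vesicles fuse at the active zone of the sending cell, adhesion proteins hold the contact together and receptors on the receiving cell take up the signal. ALM is the muscle that moves the jaw apparatus, and the esophagus carries food from it to the gut.

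The deposited table names no genes. In all, 64 of the 100 groupings were linked to a gene of the purple sea urchin, *Strongylocentrotus purpuratus* (SPU gene), through counts or means that the study prints for its genes, and 51 of them carry one of the study's functional categories. Gene names are those of the purple sea urchin genes. The categories were assigned to genes that the study had picked for their size difference in these RN libraries, so their make-up is not independent evidence of a direction. The other 36 groupings are given by their Trinity number.

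Among the linked genes that the study also measured by quantitative RT-PCR in RN is Neurx (SPU_024416, neurexin). The primers are shown because they are the M. franciscanus sequences designed for this member. They are DNA primers of 24 and 20 bases, written 5′ to 3′:
Neurx forward: aatcccttcaccttcagaacaaaa
Neurx reverse: agcgtcagggctggataaga

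Total counts ranged from 7,383,210 to 11,547,218 per library. Between 22.6 and 26.0% of the counts in RN-L, and 33.7 to 44.7% in RN-S, fell on the 50 groupings with the most counts, so the nerve libraries of the 2 sizes differ in make-up. Library names begin with OtA28 for the 3 RN-L libraries, with Ot76 for RN-S 2010 and RN-S 2011, and with OtA08 for RN-S 2013 and all ALM and ES libraries, so that library series and size cannot be told apart in RN. The tissue label was checked with 11 linked nerve genes of a list of 12 (transmitter release, synthesis and synaptic proteins), whose summed level was 860 to 1355 CPM in RN-L, 124 to 179 CPM in RN-S, 16.2 to 81.3 CPM in ALM and 28.2 to 77.9 CPM in ES. Of their 12 groupings, 3 were at 0 in all ALM-L libraries and 1 in all ALM-S libraries. A muscle list (8 of 10 genes linked, tropomyosin, troponin and titin among them) summed to 2357 to 3585 CPM in RN-L and 18158 to 40662 CPM in RN-S. Its sum was 22237 to 32719 CPM in ALM-L, 40649 to 51717 CPM in ALM-S and 1584 to 3913 CPM in ES. The range of RN-S thus overlapped that of ALM. Genes of skeleton-forming cells (15 of 15 linked) summed to 28.7 to 86.0 CPM in RN-L and 484 to 679 CPM in RN-S. They summed to 209 to 897 CPM in ALM, which overlaps RN-S, and to 18.5 to 44.0 CPM in ES. For 2 of 3 coelomocyte genes the sum was 9.75 to 149 CPM in RN-L and 434 to 502 CPM in RN-S. None of the muscle, skeleton and coelomocyte groupings is at 0 in all libraries of either nerve group. These lists come from tables chosen on the size difference, they move with size in RN without overlap, and their part in the results below was not tested.

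In RN all 3 Large libraries stood above all 3 Small libraries for each of the 100 groupings. The rule used the smallest yearly d in RN and so favored such a gap. Nothing is read from this count, and no share over all groupings is given beside it. The median level of the members was 36.1, 64.1 and 52.1 CPM in RN-L of 2010, 2011 and 2013, and 2.99, 4.09 and 3.86 CPM in RN-S of the same years. The members' summed level was 7660 to 10346 CPM in RN-L, which is 0.766 to 1.03% of a library's counts, and 436 to 634 CPM in RN-S. The ratio of mean CPM in RN-L to that in RN-S ran from 7.57 to 76.6 over the members, with a median of 14.0. The median d was 3.30, 3.29 and 3.35 in the 3 years, beside a median of 0.11, 0.08 and 0.17 over the 40,376 groupings with at least 1 CPM in 3 libraries. Scaling the libraries by TMM, which allows for the unequal make-up, moved the members' medians to 2.84, 2.90 and 2.92 and those of all groupings to −0.04, −0.04 and 0.00. edgeR called 100 of the 100 groupings higher in RN-L (adjusted p under 0.05 and a log2 fold change above 1), where it called 11.4% of the 29,047 groupings tested higher, and nothing is read from this count because the rule used the same contrast.

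**Figure D1:**
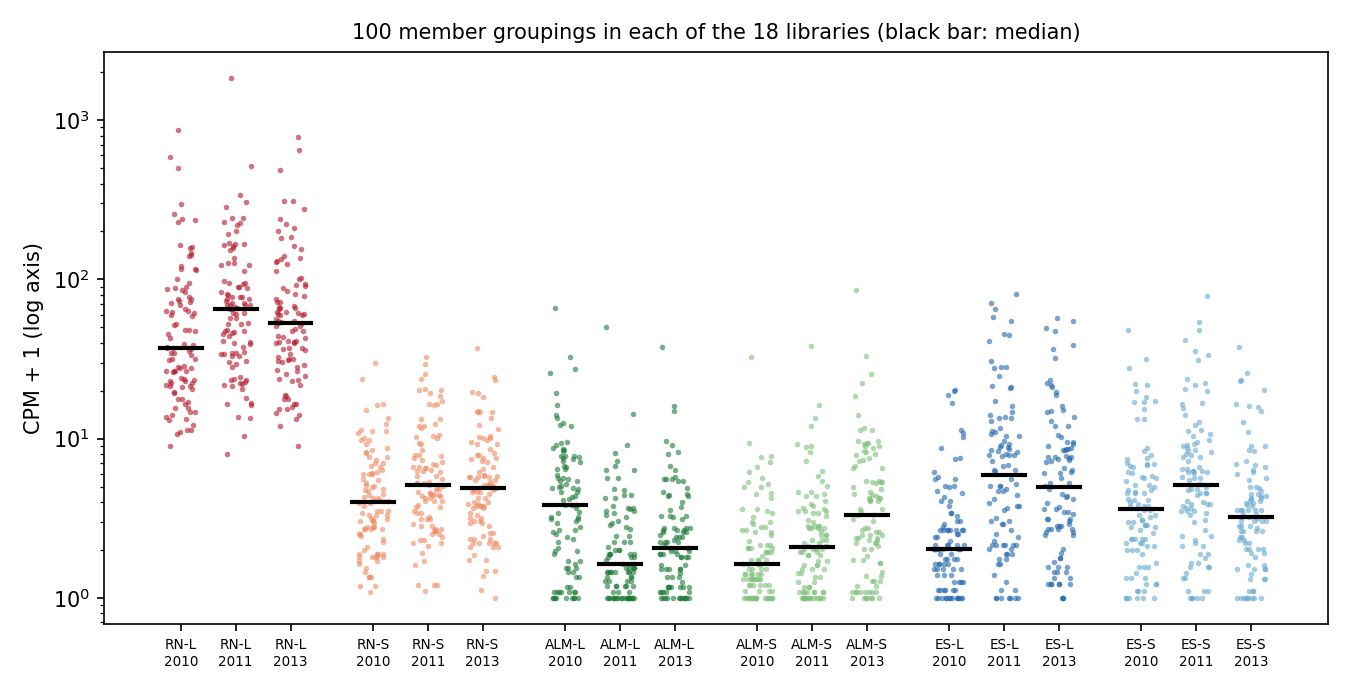
Level of each of the 100 groupings (points, CPM + 1 on a log axis) in each of the 18 libraries, with the median as a black bar. The medians stand at 36.1 to 64.1 CPM in RN-L, at 2.99 to 4.09 CPM in RN-S and at 0.626 to 4.90 CPM in the 12 ALM and ES libraries.

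The members differed in how steady the difference was over the years. The gap between a member's highest and lowest yearly d in RN was 0.58 at the median, under 1 in 79 of the 100 and 2.42 at most. The smallest yearly d fell in 2010 for 41 members, in 2011 for 33 and in 2013 for 26, so no single year set the score. Within a group the coefficient of variation of the members' CPM was 22.2% at the median in RN-L and 30.6% in RN-S, against 76.0% in ALM-L, 71.0% in ALM-S, 75.3% in ES-L and 44.2% in ES-S.

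The grouping with the highest score, DN3487_c0_g1, was linked to no gene. It had 295, 336 and 310 CPM in RN-L (2010, 2011 and 2013) against 4.11, 4.55 and 3.62 CPM in RN-S. Its score was 5.40 and its mean CPM was 76.6 times higher in RN-L. The second, DN67365_c0_g2, had 115, 134 and 124 CPM in RN-L and 3.04, 3.03 and 2.89 CPM in RN-S, with little spread within either group. By contrast DN4347_c1_g2, the third, had 587, 86.7 and 136 CPM in RN-L and 6.07, 1.82 and 3.62 CPM in RN-S, so that its level in RN-L 2010 was far above the other years while the groups still did not overlap. The fourth, DN10481_c0_g1, had 234, 226 and 208 CPM in RN-L and 2.05, 2.43 and 4.34 CPM in RN-S.

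Scube and Ank2h led the members with a gene name. Scube, a secreted and cell-surface glycoprotein with EGF-like repeats and a CUB domain, had 87.0, 94.0 and 59.1 CPM in RN-L and 1.70, 3.03 and 1.09 CPM in RN-S. Ank2h is an ankyrin, a protein that ties membrane proteins to the spectrin skeleton under the membrane. Its grouping was the most abundant member, with 861, 1852 and 784 CPM in RN-L and 28.7, 19.1 and 35.9 CPM in RN-S. Further groupings among the 10 highest scores, without a category, were DN3688_c3_g1 with 146 to 218 CPM in RN-L and 4.46 to 7.77 CPM in RN-S, DN3378_c0_g1 with 228 to 310 CPM and 7.50 to 15.5 CPM, and DN4179_c0_g1 with 237 to 652 CPM and 15.5 to 28.5 CPM. DN3378_c0_g1 was linked to SPU_012902, for which the study lists the human gene ARID1B, a subunit of a chromatin remodelling complex.

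The score of the last members lay close to that of the first groupings left out. Ranks 99 and 100, DN8275_c0_g1 and GolgA4 (named after a golgin of vesicle transport), both scored 2.41, and the next 2 groupings, DN47708_c0_g1 and DN21999_c0_g2, both scored 2.40. GolgA4 had 62.5 to 74.5 CPM in RN-L and 6.87 to 9.40 CPM in RN-S, and DN8275_c0_g1 99 to 163 CPM in RN-L and 13.9 to 15.6 CPM in RN-S. Just outside, DN47708_c0_g1 had 26.5 to 40.0 CPM in RN-L and 3.75 to 6.51 CPM in RN-S, and DN21999_c0_g2 26.4 to 83.3 CPM in RN-L and 2.83 to 3.57 CPM in RN-S.

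The study's category Nerve function holds 17 of the 51 members with a category (33.3%). Over the categories linked here, it holds 105 of the 523 linked genes that were higher in RN-L (20.1%). The study's Signaling category, which it lists among the most affected, is carried by no linked gene here. All these shares leave Signaling out, and a member without a category here may belong to it. The next categories were DNA metabolism with 9 members (17.6%, beside 19.1%), Protein trafficking with 7 (13.7%, beside 10.9%), Cytoskeleton and cilia with 6 (11.8%, beside 8.80%) and Metabolism with 5 (9.80%, beside 15.3%). Protein homeostasis had 3 members, the ubiquitin ligases Nedd4 and Ube3a-3 and the peptidase Dpp9 (5.88%, beside 3.82%). Adhesion had 2 (3.92%, beside 4.78%), autophagy 1 (1.96%, beside 2.68%) and the calcium toolkit 1 (1.96%, beside 3.25%). Apoptosis, defensome, immunity and mitochondria had 0, beside 0.574, 3.06, 4.78 and 2.87%. Biomineralization had 0 as well, and 0 of its linked genes were higher in RN-L. No test was made of these shares. The mean level of the 36 groupings without a link was 9.55 to 467 CPM in RN-L (median 53.2) and 0.307 to 20.8 CPM in RN-S (median 3.88), beside medians of 52.0 CPM in RN-L and 3.88 CPM in RN-S for the 51 with a category.

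Some of the 17 belong to the sending side of a synapse. Ppfia1 (liprin-alpha, a scaffold of the active zone) had 42.0, 70.6 and 55.7 CPM in RN-L and 3.22, 4.04 and 4.46 CPM in RN-S. Syde, whose worm relative assembles the active zone, had 113, 243 and 184 CPM in RN-L and 9.83, 15.2 and 13.7 CPM in RN-S. For Ppfia1 and Syde alike the 2010 library was the lowest in both sizes.

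Among adhesion proteins of the synapse and the axon, Neurx, a presynaptic neurexin, had 164, 243 and 239 CPM in RN-L and 12.5, 24.4 and 18.7 CPM in RN-S. Its mean was 215 ± 44.5 CPM in RN-L and 18.5 ± 5.93 CPM in RN-S (SD, n = 3 each), 11.6 times higher in RN-L. Lrrtm2, named after a leucine-rich repeat protein that binds neurexins in mammals and noted by the study as a weak match, had 14.6, 27.4 and 27.3 CPM in RN-L and 0.893, 1.11 and 2.17 CPM in RN-S. L1, a cell adhesion molecule of growing axons, was linked to a pair of groupings, of which the member had 96, 94 and 145 counts in the RN-L libraries and 2, 1 and 4 counts in the RN-S libraries. A ratio for L1 is not given on so few counts. Mdga2, named after a gene that in mammals modulates synaptic adhesion, is filed by the study under adhesion. The human gene listed beside this name is IGLON5, so its identity is uncertain. Mdga2 was singled out after its values were seen. It had 68.2, 76.5 and 59.6 CPM in RN-L and 5.36, 9.30 and 4.70 CPM in RN-S, and 0 counts in all libraries of ALM and ES but ES-L 2013.

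Receptors formed the next group. Glur6_1, named as a glutamate receptor, had 18.7, 15.6 and 22.8 CPM in RN-L, against 0.625, 0.707 and 1.45 CPM in RN-S. The human gene listed beside this name is another type of glutamate receptor (GRIN1), so its subtype is uncertain. MachrM4, a muscarinic acetylcholine receptor, had 82.7, 66.1 and 60.4 CPM in RN-L and 3.93, 4.24 and 3.74 CPM in RN-S. Its mean d of −1.26 in ALM was the largest in size of any member in ALM or ES, of opposite sign to that in RN, beside 0.74 in ES. Trk, a neurotrophin receptor kinase, had 70.4, 76.3 and 74.0 CPM in RN-L and 5.18, 12.2 and 11.2 CPM in RN-S. Its mean was 7.71 times higher in RN-L.

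The neuropeptide receptors had few counts outside RN-L. QrfprL_4, named after a receptor of RFamide peptides, had 14.5, 21.1 and 22.0 CPM in RN-L and 1, 6 and 10 counts in the RN-S libraries. It had no count in 3 of 3 ALM-L and 3 of 3 ES-L libraries. The human gene listed beside this name is GHSR, so its ligand is uncertain. Ccap/NpSLr, named after the receptors of crustacean cardioactive peptide and neuropeptide S, had 20.5, 22.3 and 15.6 CPM in RN-L, 1.07, 1.62 and 1.57 CPM in RN-S and 0 counts in all 6 ALM libraries. A count of 0 allows up to 0.260 to 0.315 CPM in an ALM library (3 counts of its total, counting error only). Arrb1, a beta-arrestin that switches off and relays signals of such receptors, had 37.6, 94.0 and 66.0 CPM in RN-L and 3.48, 5.56 and 3.26 CPM in RN-S.

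Ion channel parts and a membrane protein of excitability completed the category. Unc80L (also listed as C2orf21L_2), named after a subunit of the sodium leak channel complex, had 61.0, 60.4 and 59.2 CPM in RN-L, the steadiest Large values of the category, and 2.41, 6.16 and 2.65 CPM in RN-S. Cngb1, a subunit of cyclic-nucleotide-gated channels, had 60.7, 59.9 and 53.7 CPM in RN-L and 6.61, 6.87 and 6.27 CPM in RN-S. Tmem57-2 (macoilin, which affects neuronal excitability in worms) had 33.5, 68.4 and 61.7 CPM in RN-L and 4.47, 1.62 and 8.56 CPM in RN-S, and d was 4.73 in 2011, when RN-L was highest and RN-S lowest, beside 2.66 and 2.71 in 2010 and 2013. Over the 17 members mean d in RN ran from 2.90 (Trk) to 4.10.

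**Figure D2:**
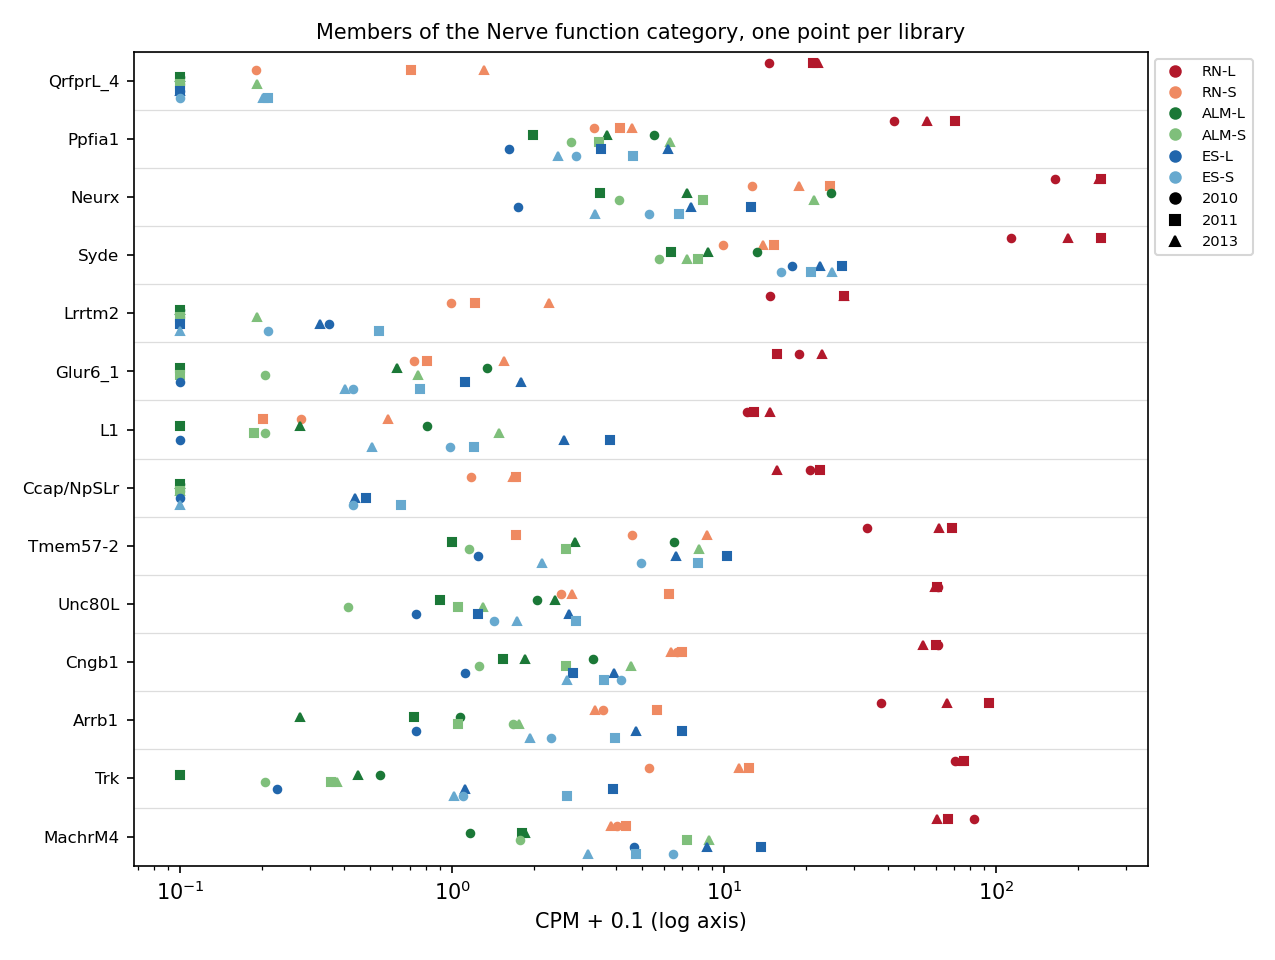
Members of the Nerve function category described in the text, 14 of the 17, with 1 point per library (CPM + 0.1 on a log axis, color for group and shape for year). In each row the 3 RN-L points lie to the right of all other points, while RN-S points lie among those of ALM and ES in most rows and apart from them for Lrrtm2, Ccap/NpSLr, Cngb1 and Trk.

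Regulators of transcription and chromatin made up most of the DNA metabolism members. Arid, a DNA-binding protein with an AT-rich interaction domain, had 13.1, 51.7 and 40.2 CPM in RN-L and 0.179, 1.52 and 2.77 CPM in RN-S, the first of them from 2 counts. Erf, an ETS-type repressor, had 47.1, 88.0 and 71.1 CPM in RN-L and 3.30, 5.96 and 2.77 CPM in RN-S. Mist1, a basic helix-loop-helix factor, had 16.7, 20.9 and 16.6 CPM in RN-L and 0.804, 1.31 and 0.724 CPM in RN-S. Z133, a zinc finger gene with the human gene FEZF1 listed beside it, was singled out after its values were seen as the one member with 0 counts in all 12 ALM and ES libraries. It had 80, 164 and 141 counts in RN-L and 10, 21 and 10 counts in RN-S.

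Members of membrane traffic, the lysosome and the cytoskeleton showed like differences at other levels. Tmcc, a transmembrane protein with coiled coils, had 20.1, 40.2 and 34.9 CPM in RN-L and 0.804, 2.83 and 2.29 CPM in RN-S. Eps15l1l, an adaptor of clathrin-coated pits, had 76.7, 165 and 92.2 CPM in RN-L and 8.31, 9.10 and 6.39 CPM in RN-S. Phdc, a protein with pleckstrin homology and RUN domains linked to a pair of groupings, had 25.5, 39.0 and 30.7 CPM in RN-L and 1.52, 2.53 and 1.93 CPM in RN-S. Alms1L, named after a protein of centrosomes and ciliary bases, had 30.7, 46.1 and 58.7 CPM in RN-L and 2.32, 3.34 and 2.77 CPM in RN-S. Atub7, an alpha-tubulin singled out after its values were seen, had 158, 166 and 220 CPM in RN-L and 15.2, 18.4 and 22.2 CPM in RN-S, beside at most 2.48 CPM in any ALM or ES library. Reads of tubulin copies may have been divided among groupings in the authors' counting, so its level is uncertain.

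Further members with names belong to the calcium toolkit, to adhesion, to the cytoskeleton (Klhl29-2) and to none of the categories linked here. Tmem63b, a membrane protein of a family of mechanically gated channels, had 46.6, 56.6 and 52.8 CPM in RN-L and 2.05, 4.24 and 4.10 CPM in RN-S. Api, an integrin alpha subunit, had 116, 152 and 133 CPM in RN-L and 7.24, 10.7 and 13.7 CPM in RN-S, but reached 64.2 and 48.8 CPM in ES-L of 2011 and 2013. DN23281_c1_g2, linked to SPU_011448 with the human gene TMEM151B beside it, had 139, 191 and 200 CPM in RN-L and 8.75, 16.2 and 9.17 CPM in RN-S. Klhl29-2, a kelch-like gene, had 22.4, 69.9 and 20.8 CPM in RN-L and 0.804, 2.12 and 1.21 CPM in RN-S, with RN-L 2011 well above the other years. It and Tmem63b share the Trinity number DN37219 but not the component within it, and 0 members share a component.

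A grouping is a cluster of assembled transcripts, and Trinity often splits a set of related transcripts into several. For 30 members, 39 further groupings of the same Trinity component (the same DN and c numbers), not members themselves, had at least 1 CPM in 3 libraries. The rule took no account of their relation to the members. Their mean d in RN was 0.19 at the median and ran from −1.50 to 2.59, and 12 of the 39 (30.8%) had a mean d above 1, beside 17.0% of all groupings of that level. DN332_c0_g1, which shares its component with Ank2h, had a mean d of 1.86, where Ank2h had 5.27. DN4347_c1_g1 and DN4347_c1_g3, which share the component of the third-ranked member, had −1.27 and −0.22, where the member had 5.41. The size difference of a member is thus that of its grouping and not always of the whole component.

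The label of the groupings, a rise in nerve only, holds for the means that chose them but not for single years. The median mean d was 0.01 in ALM (range −1.26 to 0.80) and 0.01 in ES (range −0.74 to 0.74). By year the median d was 0.83, −0.12 and −0.52 in ALM and −0.64, 0.17 and 0.56 in ES (2010, 2011 and 2013), so years of opposite sign offset each other. In ALM 46 members had a d above 1 in 2010, beside 24.3% of all groupings. A d below −1 in ALM of 2013 was found in 26 members, beside 5.33%. In ES 25 members had a d below −1 in 2010, beside 19.3%, and 28 a d above 1 in 2013, beside 16.8%. The rule limited only the mean over years and so can favor groupings whose years offset each other. These counts are a description. A single ALM or ES year went beyond 1 in either direction for 66 members, a share near the 59.6% of all groupings, and for 54 members with TMM scaling. Over the same groupings the median d was 0.43, −0.01 and 0.03 in ALM and −0.29, 0.14 and 0.25 in ES. In ES the library with the lowest member level was also the one in which few groupings held many counts. In ES-L 2010 the members' median was 1.02 CPM and the 50 groupings with the most counts held 48.4% of all counts, against 2.24 to 4.90 CPM and 22.9 to 33.9% in the other 5 ES libraries. The part of this share in the yearly values was not tested.

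**Figure D3:**
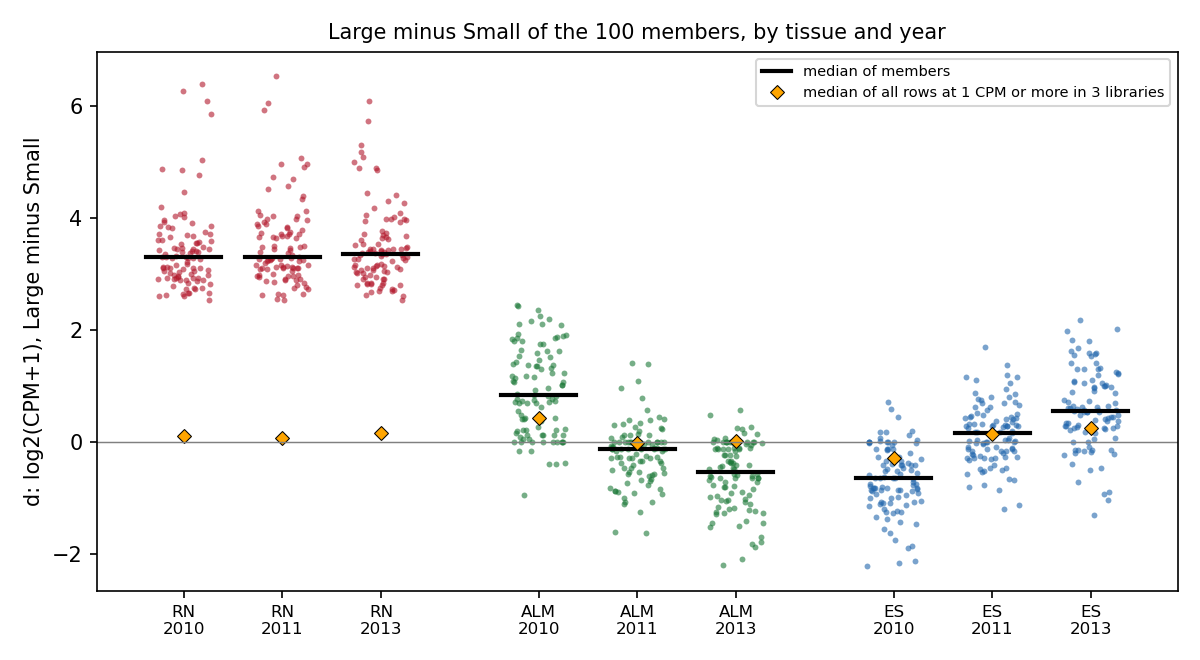
Large minus Small difference in log2(CPM+1) (d) of each of the 100 groupings by tissue and year, with the members' median as a black bar and the median of all 40,376 groupings of sufficient level as a diamond. The members lie between 2.53 and 6.53 in RN in each year, and spread around medians of −0.64 to 0.83 in ALM and ES.

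Within ALM, 62 of the 100 groupings passed the filter on low counts and edgeR called 0 of them between sizes, and within ES it called 0 of 76. The background with edgeR was 0.00408% of groupings called in ALM and 0.00331% in ES. At an unadjusted p under 0.05 in edgeR there were 2 members in ALM and 1 in ES, all lower in Large. DESeq2 called 1 member in ALM, lower in Large, beside 353 of all 24,497 groupings tested. In ES it called 0 members, beside 372 of 30,184. Since the rule took groupings with small mean differences in these tissues, the counts describe the choice and are no test of it.

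A year that the rule did not see gives values it did not use. The rule was applied to 2 of the 3 years in all tissues and the 100 groupings it then gave were read in the year left out. In RN 95 of the 100 had a d above 1 in 2010, 95 in 2011 and 99 in 2013, beside 22.8, 18.5 and 22.2% of all groupings with at least 1 CPM in a library of that year. Their median d in RN in those years was 2.92, 3.12 and 3.17. In ALM, 32, 4 and 0 of the 100 had a d above 1 in the year left out, beside 23.8, 5.62 and 7.28% of all groupings, and in ES 0, 13 and 30, beside 4.02, 9.13 and 16.7%. Of the groupings chosen without 2010, 2011 and 2013, 58, 66 and 64 were among the 100 members. Within 1 of 0 in the year left out were 67, 87 and 78 of the 100 in ALM, beside 74.7, 85.1 and 87.6% of all groupings, and 86, 83 and 68 in ES, beside 76.6, 85.6 and 77.4%. The difference in RN was thus present in years not used. With 1 pair of libraries per tissue and year no test was made, and the RN-L libraries of all years belong to one library series.

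**Figure D4:**
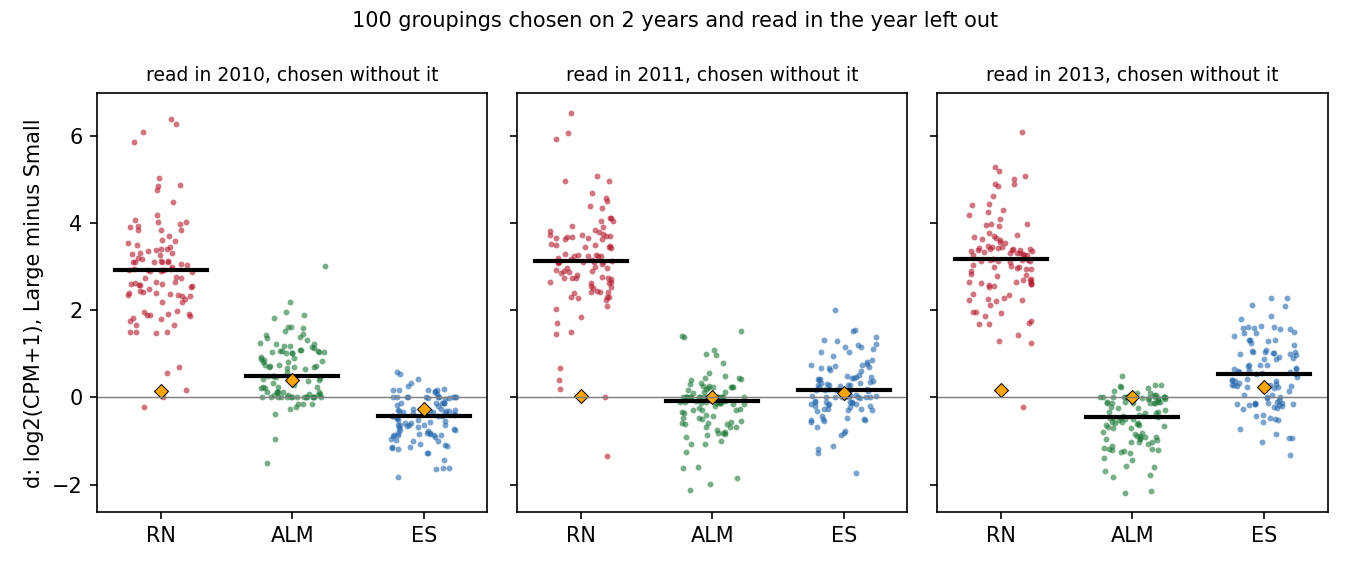
Large minus Small difference in log2(CPM+1) (d) of 100 groupings chosen by the rule without a year and read in that year, in RN, ALM and ES, with their median as a black bar and the median of all groupings of at least 1 CPM in a library of the year as a diamond. The RN medians are 2.92, 3.12 and 3.17, and the ALM and ES medians lie between −0.46 and 0.54.

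The rule asked nothing of the level in one tissue against another. For 98 of the 100 groupings all 3 RN-L libraries stood above all 12 ALM and ES libraries, beside 15.7% of all groupings, and this too is a description because the rule took groupings high in RN-L against RN-S. Both exceptions, DN4431_c0_g2 and DN11464_c0_g1 (linked to SPU_003288), overlapped with ES. DN11464_c0_g1 had 74.6, 64.3 and 70.7 CPM in RN-L against 70.4 and 54.0 CPM in ES-L of 2011 and 2013. In Small animals the order was mixed. The difference in mean log2(CPM+1) between RN-S and ALM-S was 0.91 at the median (range −1.76 to 4.23), beside 0.39 over all groupings, and that between RN-S and ES-S was 0.25 (range −2.18 to 3.49), beside −0.07. In 25 of the 100 all 3 RN-S libraries stood above all ALM-S and ES-S libraries, beside 12.1% of all groupings, and in 0 they stood below both, beside 1.40%. RN-S values entered the rule through d, so these counts are a description. Those 25 included Atub7, Trk, Mdga2, Lrrtm2, Ccap/NpSLr and Cngb1. For the other 75 RN-S was not set apart from both tissues, and in 18 of them all RN-S libraries stood below those of ALM-S or of ES-S, beside 29.1% of all groupings.

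RN-S 2013 belongs to the library series of ALM and ES and the other RN-S libraries to another. For 98 of the 100 groupings RN-S 2013 was within 1 of the mean of RN-S 2010 and 2011 in log2(CPM+1), with a median difference of 0.05, beside 89.7% of all groupings within 1. The lowest RN-L library was 1.75 to 6.0 above RN-S 2013 over the members (median 2.96). The rule used d of RN 2013 as of the other years, so a low level in RN-S 2013 was fixed by the choice of members and nothing is read from it about the library series. Series and size cannot be told apart in RN.

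The rule did not compare the level in ALM with that in ES. The 1 added to CPM shrinks d at low levels, so the rule can favor groupings that are low in these tissues. The contrast of ALM against ES is thus not wholly independent of the rule. Averaged over sizes, this contrast was tested with edgeR over 12 libraries (83 of the 100 groupings passed the filter on low counts). Of these 9 were called higher in ALM (10.8%), beside 16.2% of all 34,204 groupings tested, and 25 were called lower in ALM (30.1%), beside 27.0%. The members' median log2 fold change was −0.47, beside −0.15 over all groupings. With the libraries scaled by their totals alone 6 were called higher and 37 lower, and over all groupings the share of calls that were higher in ALM was 37.5% with TMM and 16.1% with totals. The 17 groupings that were not tested had at most 0.903 CPM on the mean over the 12 libraries, QrfprL_4, Lrrtm2, Glur6_1, Ccap/NpSLr and Trk among them.

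**Figure D5:**
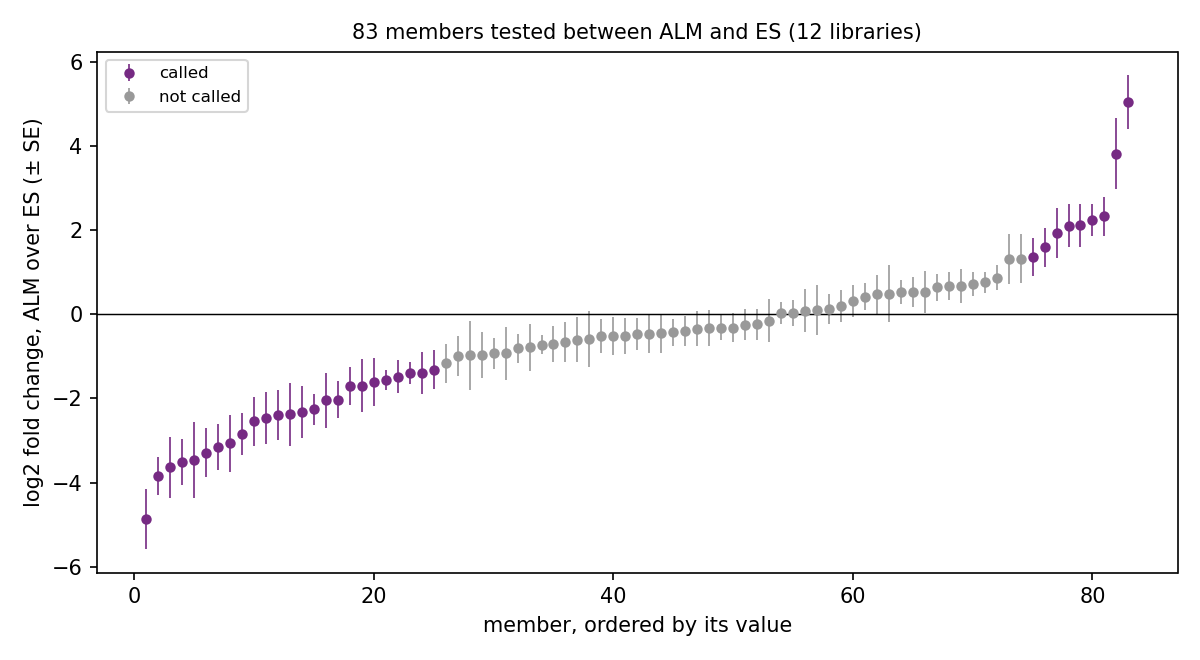
Log2 fold change of ALM over ES with its standard error for the 83 groupings tested, in rising order, over 6 ALM and 6 ES libraries. The 34 called ones (purple) are 25 lower and 9 higher in ALM, and the values run from −4.86 to 5.05.

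Scube had the largest difference called in favor of ALM. It had 15.3, 5.37 and 4.75 CPM in ALM-L and 4.31, 7.97 and 17.6 CPM in ALM-S, against 0.00, 1.40 and 0.564 CPM in ES-L and 0.552, 0.330 and 0.00 CPM in ES-S, and all 6 ALM libraries stood above all 6 ES libraries. Its log2 fold change was 5.05 ± 0.63 (SE, edgeR adjusted p = 2.9e-05). DN11640_c0_g1 followed with 3.82 ± 0.85 (edgeR adjusted p = 0.0022) and DN4347_c1_g2 with 2.33 ± 0.46 (adjusted p = 0.0010). Trim3, a tripartite-motif protein and the highest named gene after Scube, was singled out after its values were seen, with 2.24 ± 0.38 (edgeR adjusted p = 2.9e-04).

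Of the members lower in ALM, DN22240_c0_g1 (linked to SPU_028207, with the vasopressin receptor AVPR2 as the human gene listed) had at most 0.210 CPM in any ALM library. Against this it had 1.65, 7.25 and 5.08 CPM in ES-L and 1.88, 5.07 and 1.63 CPM in ES-S. The log2 fold change was −4.86 ± 0.71 (edgeR adjusted p = 1.0e-04), and the groups did not overlap. DN9079_c1_g2 had −3.84 ± 0.45 (edgeR adjusted p = 1.7e-05) and DN3239_c0_g1 −3.63 ± 0.72 (adjusted p = 0.0010). In RN-L these 2 had 32.4 to 35.3 CPM and 46.7 to 78.8 CPM, and in RN-S 2.14 to 3.5 CPM and 1.81 to 5.36 CPM.

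Of the 11 members of the Nerve function category tested, 2 were called between ALM and ES, in opposite directions, beside 43.2% of all groupings called in either direction. Neurx was higher in ALM, with 24.7, 3.40 and 7.21 CPM in ALM-L and 3.99, 8.23 and 21.3 CPM in ALM-S, against 1.65, 12.5 and 7.45 CPM in ES-L and 5.19, 6.72 and 3.25 CPM in ES-S, and the tissues overlapped. Its log2 fold change of 1.60 ± 0.46 (edgeR adjusted p = 0.012) was no longer called with the animal pool as a block (1.44, adjusted p = 0.057) or with totals alone (0.92, adjusted p = 0.21), and over 18 alternatives its adjusted p ran from 0.00052 to 0.21. Syde (−0.72 ± 0.23, edgeR adjusted p = 0.018) and Ppfia1 (0.88 ± 0.31, adjusted p = 0.030) passed the adjusted p but not the fold-change threshold.

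Other genes of the synapse on the list of nerve genes give the setting. It has 10 groupings that are not members, and edgeR called 10 of the 10 higher in RN-L, beside the 11.4% of all groupings, but the list was picked from genes with this difference. Stx1, a syntaxin of vesicle fusion, had 20.4, 18.8 and 64.5 CPM in RN-L and 4.56, 4.55 and 3.86 CPM in RN-S. Cadps, a priming factor of dense-core vesicles, had 16.7, 40.8 and 34.0 CPM in RN-L and 1.52, 2.63 and 1.81 CPM in RN-S, a mean d of 3.33 that is within the range of the members. Th, tyrosine hydroxylase of dopamine synthesis, had 129, 155 and 185 CPM in RN-L and 23.9, 27.2 and 31.0 CPM in RN-S. Between ALM and ES, 2 of the 7 such groupings tested were called higher and 5 lower in ALM, beside 16.2 and 27.0% of all groupings. Both higher ones belong to a single gene, Pclo.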

How the data were processed

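RNA-Seq libraries were made from pools of animals for RN, ALM and ES. Reads were trimmed (Trimmomatic 0.38), assembled de novo (Trinity) and mapped back (Bowtie2 2.3.4). The values are RSEM estimated counts, which the authors deposited unnormalized and in whole numbers for every Trinity grouping. Transcripts of one SPU gene were not merged in this table and were not merged here. Years and groups follow the sample titles, as another label gave 2010 for all RN samples.

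All 18 columns were used. Total counts were 7,383,210 to 11,547,218 per library, and 3 counts are 0.260 to 0.406 CPM. RSEM assigns reads shared by similar copies, so gene families are uncertain. The members and lists were chosen with earlier results of these data known. Groupings were linked to SPU genes where their counts equalled those printed for a gene in the study's tables (20 or more counts), alone or as a pair, or made up at least 95% of them (100 or more counts), and otherwise by the printed mean. Of 865 RN genes 490 were linked alone, 56 as a pair and 193 by most of their counts, and 1 each with counts shuffled among libraries. By means 730 of 1,998 were linked, 18 with means shifted.

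Named are the 10 highest scores, linked genes with Nerve function first and then by score, the 2 scores on either side of the limit, and the 3 largest differences called each way between ALM and ES. edgeR 4.0.16 (R 4.3.3, TMM, filterByExpr, quasi-likelihood test, Benjamini-Hochberg) was the test, checked on simulated data, and DESeq2 1.42.0 an alternative. A call required both adjusted p < 0.05 and a log2 fold change beyond 1 in either direction. Summaries used Python 3.11.15 with pandas 2.3.3. ALM and ES libraries of a size and year come from the same animals, so the animal pool was a block in an alternative. The correlation of their deviations from the group means was −0.47, −0.32 and 0.34 in Large and 0.20, 0.28 and 0.02 in Small (2010, 2011 and 2013). Between RN-L and RN-S, which come from different animals collected in the same year, it was −0.05, −0.08 and 0.04. The p-values measure the spread between pools. Some members that meet the naming rule are counted but not reported here by name.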

Additional observations from a re-analysis of the deposited data

How the results depend on the processing

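Of the 100 groupings 85 were chosen again with TMM or with DESeq2 size factors, 84 with a pseudocount of 0.5, 59 with a pseudocount of 5, and 100 among groupings past the count filter. Leaving out a year from all tissues kept 58 to 66. In 2 alternatives added after the data were seen, 76 were kept without the 2010 pair in the mean of ES, and 62 when the largest single-year change in ALM or ES replaced the mean. The median mean d in RN of 3.32 was 2.90 with TMM, 3.07 with DESeq2 size factors, 3.55 with a pseudocount of 0.5 and 2.51 with one of 5, and 3.32 to 3.38 with a year left out. Of the 300 held-out values in RN, 289 were above 1, against 281 to 297 under TMM and other pseudocounts. Between RN-L and RN-S the members called stayed at 99 to 100 in all alternatives, with all 100 in the replicate block by year, in which the share of all groupings called higher was 7.01% in place of 11.4%. Between ALM and ES 34 members were called, 29 with the animal pool as a replicate block and 28 to 43 in the other alternatives. Of 24 named members tested there, none changed direction while called, Neurx was the only one to lose its call, and 7 gained one in at least 1 alternative (among them DN3688_c3_g1, DN3378_c0_g1, Ppfia1, Syde, Arrb1 and MachrM4). Depth limits the 17 members too low to test between ALM and ES and the folds of L1 and QrfprL_4.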
